A study of Mus musculus with 4 samples.

Results

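The smooth muscle contractile genes described here are Acta2, Actg2, Myl9, Myh11, Tagln, Cnn1, Cnn2, Tpm1, Tpm2 and Smtn, 10 of the 31806 genes that the array design names. They were taken as the non-control probes whose gene name equals one of these symbols, and the quantity followed is the processed signal divided by the 75th percentile of the same array, called the relative signal below. All 10 genes had a probe, 17 probes in all, on each of 4 single-colour 60-mer arrays. The brightest probe of a gene stands for it. It was well above background on all 4 arrays for 9 of the 10 genes, the exception being Myh11, and above the 75th percentile on all 4 arrays for 8, the exceptions being Myh11 and Actg2.

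RNA came from mouse embryonic fibroblasts (MEFs), primary cells grown from C57BL/6J embryos of mid-gestation, cultured in DMEM with serum and collected in logarithmic growth without further treatment. The study asked what cells lose or gain without cyclin G1 (Ccng1) and cyclin G2 (Ccng2), 2 related cyclins of the DNA damage response. A G2KO array (genotype CycG2-/-) is paired with a CycG2+/+ wild type (WT), and a DKO array (CycG1-/-CycG2-/-) with a CycG1+/+CycG2+/+ WT. The deletions are constitutive, so every cell type of the embryo carried them before the cells were put in culture. Each group is 1 array, so no comparison has a replicate, and a difference between 2 arrays cannot be told apart from a difference between 2 cell preparations.

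Smooth muscle cells shorten when myosin, switched on by phosphorylation of its regulatory light chain, pulls on actin filaments that carry tropomyosin and calponin. Fibroblasts hold part of the same machinery: cells spread on a culture dish make stress fibres, and Acta2 and Tagln are the usual signs of a fibroblast that has turned contractile, a myofibroblast. Most of these genes answer to serum response factor (Srf), which binds the CArG box together with coactivators of the myocardin family, Myocd, Mkl1 and Mkl2. TEAD factors bind a second element, MCAT.

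The upstream sequences of 3 members are shown because they hold a CArG box or a near match, and because Acta2 and Myl9 were over 4-fold lower on the DKO array while Cnn2 was not. They are the 250 bases before the annotated start site in RefSeq (GRCm38.p6), 5′ to 3′ on the gene's strand, at chr19:34255374-34255623 on the minus strand for Acta2, chr2:156775214-156775463 on the plus strand for Myl9 and chr10:79988350-79988599 on the plus strand for Cnn2. Capitals mark a CArG box, a CArG box with a single G or C among its central A or T letters, or the MCAT letters CATTCC on either strand (GGAATG on the strand shown).
Acta2: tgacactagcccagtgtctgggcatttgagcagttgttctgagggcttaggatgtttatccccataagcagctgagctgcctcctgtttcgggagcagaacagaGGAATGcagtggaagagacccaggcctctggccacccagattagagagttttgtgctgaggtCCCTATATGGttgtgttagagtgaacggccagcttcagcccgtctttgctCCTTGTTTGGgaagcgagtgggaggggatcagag
Myl9: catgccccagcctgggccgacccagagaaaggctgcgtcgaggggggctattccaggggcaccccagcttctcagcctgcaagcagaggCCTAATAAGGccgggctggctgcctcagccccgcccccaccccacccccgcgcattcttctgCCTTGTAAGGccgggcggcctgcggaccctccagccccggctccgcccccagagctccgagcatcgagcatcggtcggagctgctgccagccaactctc
Cnn2: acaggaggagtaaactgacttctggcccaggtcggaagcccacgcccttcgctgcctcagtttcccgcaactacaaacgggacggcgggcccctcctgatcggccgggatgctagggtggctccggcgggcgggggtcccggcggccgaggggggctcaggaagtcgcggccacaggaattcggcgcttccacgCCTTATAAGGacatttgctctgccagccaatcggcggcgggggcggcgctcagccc

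In Acta2 the capitals are, in order, MCAT from -146 to -141 relative to the start site, a near CArG match from -84 to -75 and another from -34 to -25. In Myl9 they are a CArG box from -161 to -152 and a near match from -99 to -90. Cnn2 holds a CArG box from -56 to -47. The table of promoters has entries for 7 of the 10 members, and over windows of 300 bases, from 250 before to 50 after the start site, 2 of these 7 held a CArG box, against 1.63% of 32851 promoters. A near match was found in 2 of the 7, against 8.50% of all promoters, and MCAT in 3 of the 7 (Acta2, Smtn and Tpm1), against 14.7%. Among the members, Cnn1 and Tpm2 held no match. Some related lists, described further on, also exceeded 1.63%. A CArG box was in 20.0% of 15 promoters of regulators of smooth muscle genes and 16.1% of 31 of other smooth muscle genes. It was in 14.3% of 28 of striated muscle genes and 13.3% of 15 of non-muscle counterparts. The other lists held none. In the lists with a CArG box, MCAT ran from 6.67% (regulators) to 35.7% (striated muscle genes). None of the matches marked overlaps another. These are matches of letters, with no measurement of binding. The promoters of Tagln, Myh11 and Actg2 were not analysed here.

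The array labelled G2KO carries a doubt of its own. Ccng2, the targeted gene, had relative signals of 0.0910 there, 0.104 on its WT, 0.0619 on DKO and 0.0806 on the WT of DKO, and whether the probe lies in the deleted part is not given in the sources used here, so it does not check the labels. Ccng1 was 1.98 on the array labelled G2KO, 9.45 on its WT and 1.66 on the WT of DKO, and was not well above background on DKO, at least 228-fold below its WT. Over all probes well above background, this array was closer to the WT of DKO (Pearson r 0.986 over 24197 probes, SD of log2 ratios 0.535) than to its own WT (0.965 and 0.859), and the 2 arrays labelled WT were less alike (0.952 and 1.005). The study's supplement also lists Pdgfra and Lox as lower in G2KO cells, the opposite of the direction found here from the labels. Every direction of this comparison therefore rests on the labels. Were the 2 labels of the pair exchanged, each log2 ratio of this comparison would keep its size and turn its sign, including those of Acta2 (-0.97), Cnn1 (-1.89) and Actg2 (2.31). The array called WT of G2KO would then not be a WT array, and each value that uses it as one would lose that meaning. Such values are the differences between WT arrays, those of DKO against the other WT, the SD of 1.005 and the limma fit. Whether the labels were exchanged was not tested. The comparison of DKO with its own WT uses neither array. Of 12 fibroblast markers, 10 were well above background on the WT of G2KO and all 12 on each of the other 3 arrays. Between 65.0% and 72.2% of all probes were so on an array, so this is a weak check of the label of a fibroblast. Some markers that passed were low. Thy1 was 0.461 on the WT of G2KO and 61.5 on the WT of DKO, and Pdgfra was 0.0296 on DKO and 5.22 on its WT.

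On the DKO array, 3 of the 10 genes were at least 4-fold below the paired WT and none was 4-fold above it. They were Tagln, Myl9 and Acta2. Over all 22881 genes compared, 4.03% were at least 4-fold lower and 4.04% at least 4-fold higher. At 2-fold, 5 members were lower (the same 3 with Tpm1 and Tpm2) and 1 was higher, against 9.61% and 10.6% of all genes. The higher one was Myh11, by a ratio to a WT signal not well above background. The median log2 ratio of the 10 members was -1.06, and that of all genes was 0.03. Between the 2 arrays labelled WT, log2 ratios had an SD of 1.005 over 24197 probes well above background on all arrays, against 1.017 between DKO and its WT and 0.535 between the array labelled G2KO and the WT of DKO, the closest of the 5 pairs compared. With 1 array per group, whether the members' differences would recur in another pair of cultures could not be tested. Spots of 1 probe on 1 array varied less, with a median SD between 4.11% and 6.65% on the 4 arrays, over probes with 5 or more spots. Of the members' probes only that of Acta2 has more than 1 spot per array. The values of Tagln and Myl9 therefore rest on 1 spot per array, whose error this SD does not give. Fewer cells of a kind cannot be told apart from less RNA per cell on these arrays.

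**Figure D1:**
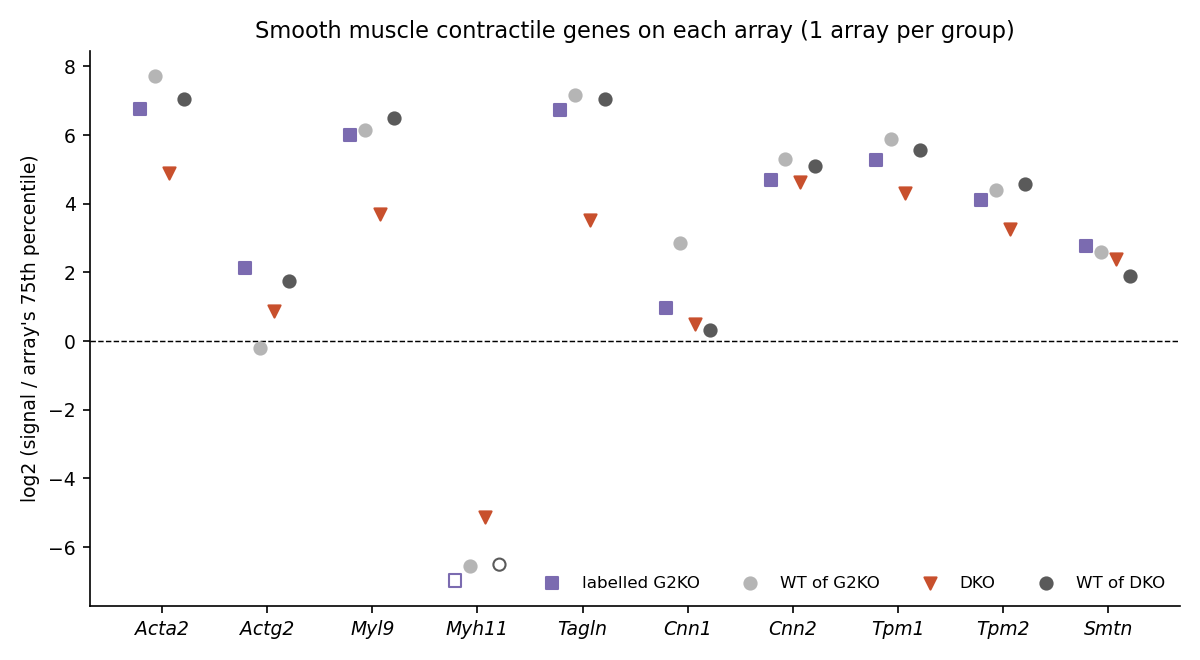
Log2 of the relative signal of the brightest probe of each member on the 4 arrays, 1 point per array, so there are no error bars. Filled points were well above background and open points were not, and the dashed line at 0 is the array's 75th percentile. The DKO array has the lowest point for Acta2, Myl9, Tagln, Cnn2, Tpm1 and Tpm2, although for Cnn2 the gap is small (25.0 against 25.6).

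The actins come first, as the track on which myosin moves. Acta2 encodes smooth muscle alpha actin, and its probe (mm9 chr19:34316060-34316119, minus strand) is spotted 10 times on each array. Its relative signal was 107 on the array labelled G2KO, 210 on the WT of that comparison, 29.6 on DKO and 133 on the WT of DKO. DKO was the lowest array and the WT of G2KO the highest. The 10 spots ran from 27.5 to 31.8 on DKO, from 98.1 to 121 on the array labelled G2KO, from 123 to 147 on the WT of DKO and from 186 to 272 on the WT of G2KO. As mean ± SD over spots these were 29.6 ± 1.26, 108 ± 5.72, 133 ± 7.14 and 212 ± 24.6 (n = 10 spots each), an error of the spots of 1 hybridisation and not of cultures. After scaling the spots of no 2 arrays overlapped, but the small gap from 121 to 123 depends on the scaling. Before it, the brightest Acta2 spot had a mean pixel signal of 257937 on the array labelled G2KO and 261401 on the WT of DKO. DKO was 4.51-fold below its WT (log2 ratio -2.17) and 7.12-fold below the other WT (-2.83).

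The array labelled G2KO was 1.96-fold below its WT in Acta2 (log2 ratio -0.97), but the 2 WT arrays were themselves 1.58-fold apart (-0.66), and against the WT of DKO the difference was 1.24-fold (-0.31). No spot was saturated. The brightest Acta2 spot on the WT of G2KO reached 91.7% of the highest mean pixel signal on that array, against 15.5% on DKO.

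Actg2 encodes the gamma actin of visceral smooth muscle (probe mm9 chr6:83462904-83462963, minus strand), and it did not share the order of Acta2. Its relative signal was 4.34 on the array labelled G2KO, 0.871 on its WT, 1.82 on DKO and 3.36 on the WT of DKO. The WT of G2KO was the lowest array here, where it had been the highest for Acta2. The array labelled G2KO was 4.98-fold above its WT (log2 ratio 2.31), and the WT arrays differed by 3.85-fold (1.95). DKO was 1.84-fold below its own WT (-0.88) and above the other WT (1.06), so the sign of its difference depends on the WT array used.

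Myosin is represented by a light and a heavy chain. Myl9 encodes the regulatory light chain whose phosphorylation starts contraction (probe mm9 chr2:156607301-156607360, plus strand). Its relative signal was 64.5 on the array labelled G2KO, 70.6 on its WT, 13.1 on DKO and 91.4 on the WT of DKO. The 3 other arrays lay close together and DKO stood apart. DKO was 6.99-fold below its WT (log2 ratio -2.80) and, by log2 ratio, -2.43 against the other WT, while the WT arrays differed by 0.37 and the array labelled G2KO by -0.13 from its WT.

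Myh11 encodes the smooth muscle myosin heavy chain, the marker most closely tied to differentiated smooth muscle (probe mm9 chr16:14202190-14202249, minus strand). Its relative signal was 0.00795 on the array labelled G2KO and 0.0109 on the WT of DKO, neither well above background, 0.0106 on the WT of G2KO and 0.0289 on DKO. The lowest signal called well above background was between 0.00660 and 0.0102 on the 4 arrays, and 0.00730 on DKO. DKO was 2.64-fold above its WT (log2 ratio 1.40), a measured ratio of single spots and not a lower limit. The spot on the WT of DKO had an error of 27.3% of its signal. The log2 ratio shrank to 0.73 with normexp background correction. Of 26 other smooth muscle genes, described further on, 20 to 24 were well above background on an array, against 65.0% to 72.2% of all probes. Kcnmb1, a potassium channel subunit of smooth muscle, was so on none and desmin (Des), an intermediate filament of muscle, on DKO alone.

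Tagln, or transgelin (SM22), is an actin-bundling protein and an early smooth muscle marker (probe mm9 chr9:45738097-45738156, minus strand). It showed the widest range of the 9 members measured on all arrays. The relative signal was 105 on the array labelled G2KO, 145 on its WT, 11.6 on DKO and 132 on the WT of DKO. DKO was 11.3-fold below its WT (log2 ratio -3.50) and 12.4-fold below the other WT (-3.63), whereas the 2 WT arrays differed by 1.09-fold (-0.13). The array labelled G2KO was 1.37-fold below its WT (-0.46).

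Calponins bind actin and slow the myosin motor. Cnn1, basic calponin, is restricted to smooth muscle in the adult (probe mm9 chr9:21913058-21913117, plus strand). Its relative signal was 1.94 on the array labelled G2KO, 7.22 on its WT, 1.41 on DKO and 1.25 on the WT of DKO. A single array, the WT of G2KO, stood above the 3 others. The array labelled G2KO was therefore 3.72-fold below its WT (log2 ratio -1.89) but 1.55-fold above the WT of DKO (0.63), and DKO was 1.12-fold above its own WT (0.17) but 5.13-fold below the other (-2.36). The 2 arrays labelled WT differed by 5.77-fold (-2.53), more than DKO or the array labelled G2KO differed from its own WT.

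Cnn2, the calponin also made by non-muscle cells, varied little. The brightest of its 2 probes (mm9 chr10:79457785-79457844, plus strand) gave 25.6 on the array labelled G2KO, 39.2 on its WT, 25.0 on DKO and 34.3 on the WT of DKO, a range of 1.57-fold. Its log2 ratios were -0.46 for DKO over its WT and -0.61 for the array labelled G2KO over its WT. The second probe gave -0.54 and -0.56.

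Tropomyosins lie along the actin filament and control access of myosin and other proteins. Tpm1 has 5 probes, which lie at different places of a gene known for alternative exons and transcript ends. The 2 shown next, 5′ to 3′, are the brightest probe (mm9 chr9:66871166-66871225, minus strand) and an internal probe further from the 3′ end of the gene (mm9 chr9:66880274-66880333, minus strand), since the values differ between them.
Tpm1 brightest probe: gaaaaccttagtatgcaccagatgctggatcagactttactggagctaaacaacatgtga
Tpm1 internal probe: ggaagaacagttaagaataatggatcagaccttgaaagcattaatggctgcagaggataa

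The brightest Tpm1 probe gave relative signals of 39.0 on the array labelled G2KO, 59.1 on its WT, 19.8 on DKO and 46.8 on the WT of DKO. DKO was 2.36-fold below its WT (log2 ratio -1.24), and the array labelled G2KO was 1.52-fold below its own (-0.60). The internal probe gave 2.95, 5.84, 1.79 and 2.93 on the same 4 arrays, with log2 ratios of -0.71 for DKO and -0.99 for the array labelled G2KO. The other 3 probes gave -0.86, -0.80 and -0.18 for DKO over its WT and -1.21, -1.20 and -1.27 for the array labelled G2KO over its WT. All 5 probes were thus lower on DKO and on the array labelled G2KO than on the paired WT, the latter direction resting on the labels. Which comparison was the larger changed from the brightest probe to the others. Those 4 probes were also lower on the WT of DKO than on the WT of G2KO, by log2 ratios from -0.83 to -0.99, against -0.34 for the brightest. The probes at mm9 chr9:66875796-66875855 and chr9:66875782-66875841 share sequence and are not independent.

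Tpm2, beta tropomyosin, is abundant in smooth and slow skeletal muscle. The brightest of its 2 probes (mm9 chr4:43532262-43532321, minus strand) gave 17.1 on the array labelled G2KO, 21.2 on its WT, 9.63 on DKO and 23.6 on the WT of DKO. The 3 other arrays lay within a narrow band and DKO below it, 2.45-fold below its WT (log2 ratio -1.29). The second probe, at another place of the transcript, gave 14.9, 17.6, 9.64 and 20.1 and a log2 ratio of -1.06. The array labelled G2KO differed from its WT by -0.31 and -0.24 with the 2 probes.

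Smtn, smoothelin, is a cytoskeletal protein of contractile smooth muscle. The brightest of its 2 probes (mm9 chr11:3417530-3417589, minus strand) gave 6.88 on the array labelled G2KO, 6.06 on its WT, 5.23 on DKO and 3.74 on the WT of DKO. DKO was 1.40-fold above its WT (log2 ratio 0.48) and 1.16-fold below the other WT (-0.21). The second probe gave 0.40 and -0.16 for the same pairs. The 2 arrays labelled WT differed by 1.62-fold, so neither direction exceeded the difference between these 2 arrays.

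**Figure D2:**
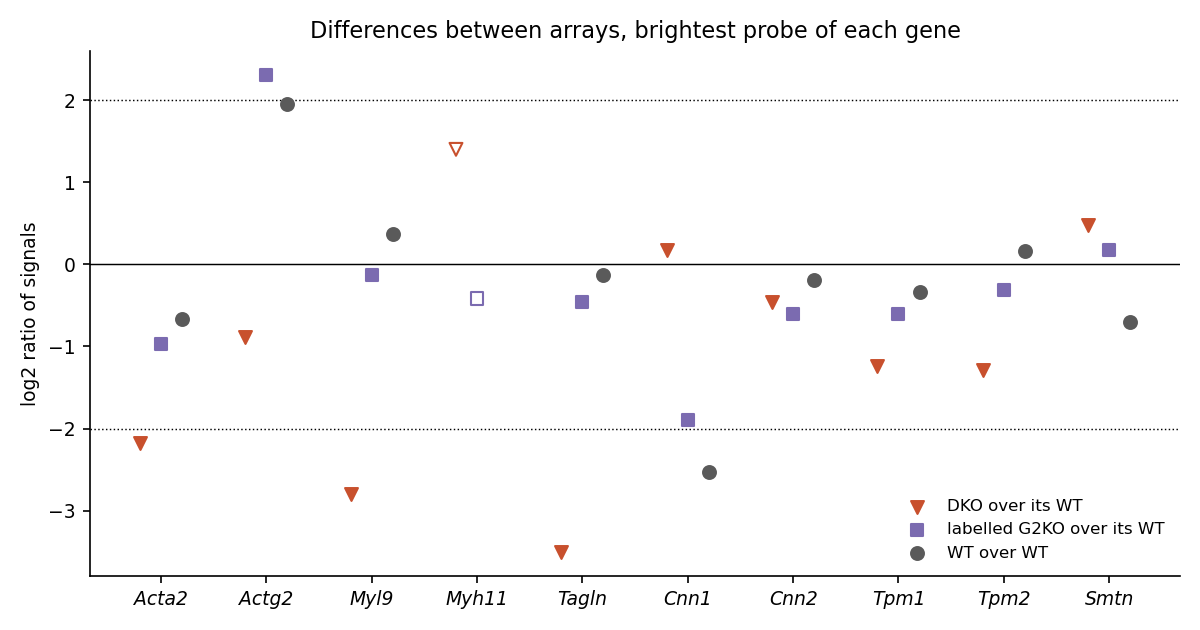
Log2 ratio of each member's brightest probe for DKO over its WT, for the array labelled G2KO over its WT and for the WT of DKO over the WT of G2KO, 1 ratio per point and no replicate. Open points are ratios with 1 array not well above background, and the dotted lines mark 4-fold. Tagln, Myl9 and Acta2 lie below the lower line for DKO alone, while Actg2 and Cnn1 are far from 0 in both comparisons that use the WT of G2KO.

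For the array labelled G2KO against its WT, differences among the members were few and went both ways. Actg2 was at least 4-fold higher, no member was at least 4-fold lower, and at 2-fold Actg2 was higher and Cnn1 lower. Over 22791 genes compared, 3.71% were at least 4-fold higher and 2.02% at least 4-fold lower, and 8.74% and 8.37% were so at 2-fold. The members' median log2 ratio was -0.44, against -0.17 over all genes. Scaling matters here, because without it every log2 ratio of this comparison is 0.49 higher, and Tagln (0.04), Myl9 (0.36) and Tpm2 (0.19) change side. The same shift is -0.08 for DKO over its WT and 0.24 between the WT arrays. Between the WT of DKO and the WT of G2KO, with 9 members compared, Cnn1 was at least 4-fold lower on the WT of DKO and none was 4-fold higher. At 2-fold Actg2 was higher and Cnn1 lower. Of 22137 genes, 4.63% were at least 4-fold higher and 2.76% lower, and 11.7% and 9.92% at 2-fold. The median was -0.19 for the members and -0.08 for all genes. The comparisons share arrays, so Actg2 and Cnn1 rest in both on the WT of G2KO. Between the array labelled G2KO and the WT of DKO, the 9 members compared had log2 ratios from -0.50 to 0.88.

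A pattern chosen after its values were seen, a DKO signal at least 2-fold below each of the other 3 arrays, held for Acta2, Tagln and Myl9. These are 3 of the 9 members well above background on all arrays, against 3.48% of 19466 such genes. DKO was the lowest array for 6 of the 9, and for 31.0% of all such genes.

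**Figure D3:**
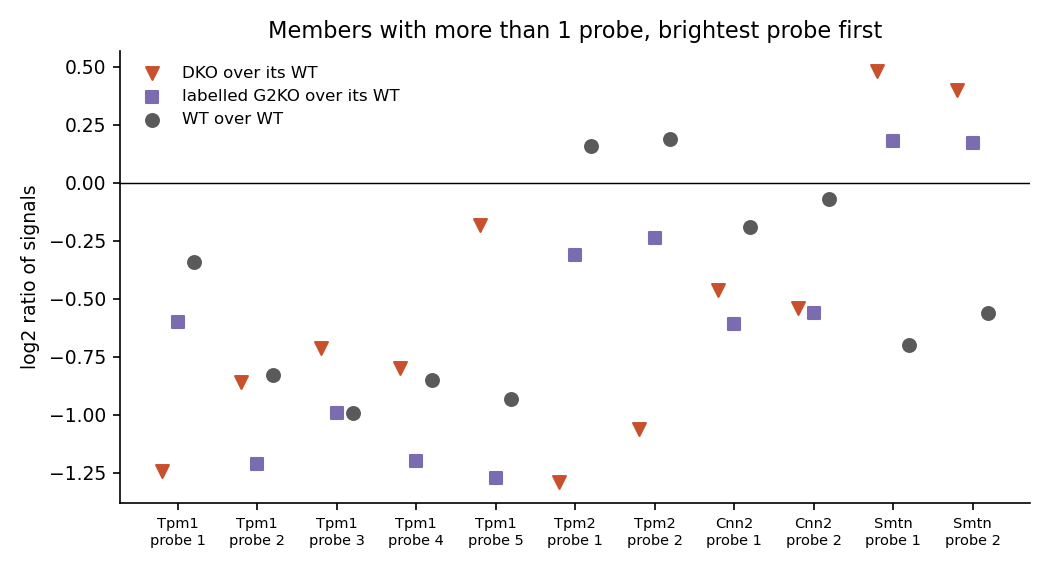
Log2 ratio of every probe of the 4 members with more than 1 probe, the brightest first, in the same 3 comparisons, 1 ratio per point. The 5 Tpm1 probes run from -1.24 to -0.18 for DKO over its WT, while the 2 probes of Tpm2, of Cnn2 and of Smtn lie close to each other.

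The regulators of smooth muscle genes were examined as a list of 22, of which 20 could be compared between DKO and its WT. Their median was -0.70. None was at least 4-fold higher and 3 were at least 4-fold lower, against 4.04% and 4.03% of all genes. The 3 were Hey1, a Notch target and repressor (13.2-fold lower), Mef2c, a muscle transcription factor (8.23-fold lower), and Csrp2, a LIM protein that links Srf to its partners (7.55-fold lower). Csrp2 had relative signals of 22.0 on the array labelled G2KO, 30.4 on its WT, 2.80 on DKO and 21.1 on the WT of DKO, so that DKO was the lowest array. The highest relative signal on any array was 0.469 for Hey1 and 0.0904 for Mef2c.

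Srf and its coactivators are given for their role, whatever their size. Srf was 4.57 on the array labelled G2KO, 4.84 on its WT, 1.70 on DKO and 4.46 on the WT of DKO, 2.63-fold lower on DKO than on its WT (log2 ratio -1.39) and -0.12 between the WT arrays. Myocd was dim, at 0.0795, 0.0825 and 0.0265 on the array labelled G2KO, its WT and the WT of DKO, and not well above background on DKO, where it was at least 3.62-fold below its WT. The coactivators Mkl1 and Mkl2 differed by 0.35 and -0.13 (log2 ratio), and Tead1, a factor that binds MCAT, by -0.17. Tgfb1i1 (Hic-5), a focal adhesion protein that acts in TGF-β signalling, was 3.63-fold lower, with 4.50 on DKO and 14.6, 20.1 and 16.4 on the array labelled G2KO, its WT and the WT of DKO. Of the 20 regulators compared, 16 were lower and 4 higher on DKO, the highest being Smad3 (log2 ratio 0.40). The list holds repressors such as Hey1 beside activators, so its median has no single meaning for the members.

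On the array labelled G2KO, none of 22 regulators was 4-fold apart from the WT, against 3.71% of all genes higher and 2.02% lower. The median was -0.22. The largest log2 ratios were 1.53 for Klf4, a factor that represses smooth muscle genes, -1.28 for Hey1 and -1.13 for Klf5, a Krüppel-like factor of growing smooth muscle.

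Among 24 other smooth muscle contractile and focal contact genes compared, 5 were at least 4-fold lower and 1 at least 4-fold higher on DKO. The shares of all genes were 4.03% and 4.04%, and the median of the 24 was -0.66. Itga8, an integrin chain of mesenchymal and smooth muscle cells, was at least 357-fold lower, with 2.61 on the WT of DKO and no signal well above background on DKO. Fhl1, a LIM protein of muscle, was 36.1-fold lower, and Pdlim3, a protein of actin anchorage, at least 18.5-fold lower. The higher gene was Hspb1, a small heat shock protein that binds actin, at 69.7 on DKO and 5.30 on its WT. It is named because the count is 1. Of the 24, 18 were lower and 6 higher than on the WT. Mylk, the kinase that phosphorylates Myl9, was dim, at 0.235 on DKO and 0.0662 on its WT, 3.55-fold higher on DKO (log2 ratio 1.83). Vcl, vinculin, differed by 0.46 and Cald1, caldesmon, by 0.22. Lmod1, leiomodin, a nucleator of smooth muscle actin filaments, was not well above background on DKO and at least 2.93-fold lower there, and Ppp1r12b, a subunit of myosin phosphatase, and Actn1, alpha actinin, differed by -0.66 and -0.61. These 6 were named for their role, the last 3 after their values were seen. For the array labelled G2KO the median was -0.53. There 1 of 24 exceeded the WT by 4-fold or more and 2 fell short of it by as much, against 3.71% and 2.02% of all genes. They were Aoc3, an amine oxidase of smooth muscle (5.40-fold higher), Npnt, a ligand of Itga8 (8.82-fold lower), and Lmod1 (4.64-fold lower). All were dim. On this array and its WT, Aoc3 was 0.0743 and 0.0138, Npnt 0.0496 and 0.438 and Lmod1 0.0108 and 0.0499. The lowest signals called well above background on these arrays were 0.00660 and 0.00716.

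The non-muscle counterparts of the members gave another picture. Of 13 compared between DKO and its WT, none was 4-fold apart in either direction, against 4.03% of all genes lower and 4.04% higher. The median was 0.08. Actb and Actg1, the cytoplasmic actins, had log2 ratios of 0.05 and 0.11, and Myh9, the non-muscle myosin heavy chain, -0.26. The largest differences were 1.49 for Tagln3 (a lower limit, near background), -1.07 for Cnn3 and 0.92 for Myl12b. Summed over the list, relative signals were 713 on DKO and 732 on its WT, and 688 and 922 on the array labelled G2KO and its WT. The same sum over the 10 members was 117 on DKO, 470 on its WT, 372 on the array labelled G2KO and 559 on its WT. Bright genes dominate it, as Acta2, Tagln and Myl9 were 133, 132 and 91.4 on the WT of DKO and 29.6, 11.6 and 13.1 on DKO. Gene by gene, 7 members were lower and 3 higher on DKO than on its WT. On the array labelled G2KO the counterparts had a median of -0.48, close to the -0.44 of the members. Its largest differences from WT in this list were 1.04 for Tagln3, a lower limit, 1.02 for Smtnl2 and -0.87 for Cnn3.

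**Figure D4:**
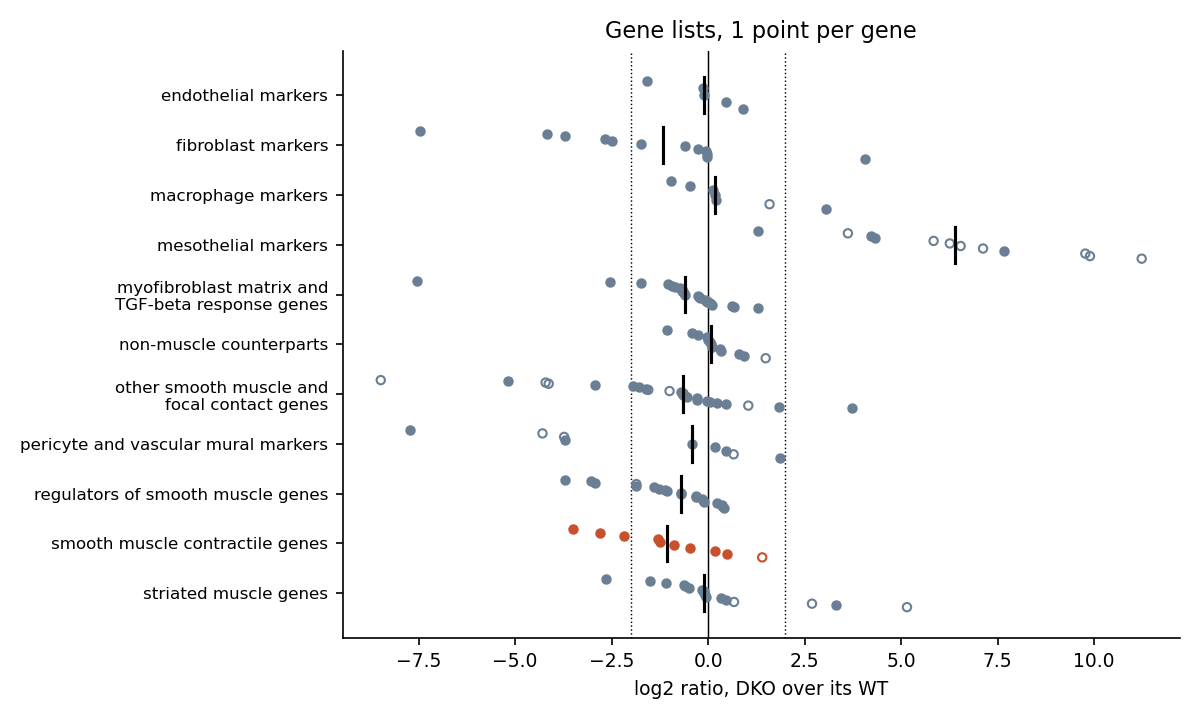
Log2 ratio of DKO over its WT for every gene of each list, 1 point per gene, with the members in red. Open points are ratios with 1 array not well above background, black bars are medians and dotted lines mark 4-fold. The members' median is -1.06, that of the non-muscle counterparts 0.08 and that of the mesothelial markers 6.40.

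Markers of other cell types that an embryo culture could hold also differed between the arrays. All 12 mesothelial markers were higher on DKO than on its WT, 11 of them at least 4-fold, against 4.04% of all genes. Their median was 6.40. Their summed relative signal was 150 on DKO, where Msln alone was 100. It was between 0.704 and 1.73 on the other 3 arrays, where between 4 and 6 of the 12 were well above background, against 12 on DKO. Wt1, Upk1b and Upk3b, which define the mesothelium, were not well above background on any of those 3 arrays. The largest differences were for Krt18 (at least 2406-fold), Upk1b (at least 950-fold) and Wt1 (at least 874-fold). For G2KO as labelled, 3 of 7 mesothelial markers compared were 4-fold above the WT and 1 below, against 3.71% and 2.02% of all genes. The largest log2 ratios were 4.18 for Krt19, 3.20 for Bnc1 and -2.60 for Krt7, with sums of 1.34 and 1.73. The part of these cells or genes in the lower Acta2, Tagln and Myl9 signals was not tested.

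The 12 fibroblast markers summed to 410 on DKO, 580 on its WT, 507 on the array labelled G2KO and 403 on its WT. On DKO 5 were at least 4-fold lower and 1 at least 4-fold higher, against 4.03% and 4.04% of all genes, with a median of -1.17. Pdgfra (176-fold) and Thy1 (18.0-fold) were lower, and Dcn was 16.6-fold higher. The WT of G2KO, which had the highest Acta2, Tagln and Cnn1, had no signal well above background for Pdgfra and Lum. Against it, the array labelled G2KO had 4 of 12 fibroblast markers at least 4-fold up and none 4-fold down, beside 3.71% and 2.02% of all genes. The largest log2 ratios were 7.93 for Pdgfra, 6.85 for Thy1 and 3.78 for Col3a1. These signs rest on the labels of the pair and would turn if they were exchanged. The part of these differences in the members' values was not tested.

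Pericyte and vascular mural markers, shared in part with smooth muscle, were 4-fold lower on DKO in 4 of 9 genes compared and 4-fold higher in none. The shares of all genes were 4.03% and 4.04%. The markers summed to 9.25 on DKO and 27.1 on its WT. Their median was -0.43, with 5 genes lower and 4 higher, Notch3 (3.63-fold) the most among the higher. The largest differences were for Cspg4 (211-fold lower), Agtr1a (at least 19.6-fold) and Ednra (at least 13.3-fold). Kcnj8 and Abcc9, which define pericytes, were not well above background on any array, whereas Rgs5, another such gene, was above it on DKO alone (0.0162). For G2KO as labelled, 3 of 8 markers compared were 4-fold or more above the WT, against 3.71% of all genes. Ednra (4.41), Cspg4 (3.59) and Agtr1a (2.83) had the largest log2 ratios, 26.6 and 20.8 being the sums.

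The median of 23 myofibroblast matrix and TGF-β response genes was -0.60 on DKO. Of them, 2 were at least 4-fold lower and none higher, against 4.03% and 4.04% of all genes. They were Postn, periostin (186-fold), and Ltbp2, a latent TGF-β binding protein (5.87-fold), followed by Col3a1 (3.34-fold). Ctgf and Thbs1, given for their role as TGF-β targets, had log2 ratios of 0.06 and -0.22. For G2KO as labelled, 5 of 23 exceeded the WT by 4-fold or more and none was 4-fold lower, against 3.71% and 2.02% of all genes. Ltbp2 (7.27), Postn (4.26) and Lox (4.02) led, with signs that rest on the labels of the pair and would turn if they were exchanged. Several of these genes also stand in the fibroblast list.

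Of 29 striated muscle genes, 14 to 20 were well above background on an array, against 65.0% to 72.2% of all probes. Of 17 compared, 3 were at least 4-fold higher on DKO, namely Tnni1 (at least 35.5-fold), Tnnt2 (9.84-fold) and Myl7 (at least 6.45-fold), and 1 was lower, Acta1, the skeletal muscle actin, at 0.929 on DKO and 5.81 on its WT. Over all genes, 4.04% were at least 4-fold higher and 4.03% lower. Of the skeletal lineage factors in the list, Myf5 was not well above background on any array. Myod1 (0.0114) and Myog (0.00925) were so on the array labelled G2KO alone. Myf6 and Pax3 were well above background on all 4 arrays, and Pax7 on all but the WT of DKO. For the array labelled G2KO, 3 of 19 were above its WT by 4-fold or more and 1 below, against 3.71% and 2.02% of all genes. Pax3 (3.16), Tnnt1 (2.42) and Tnnc1 (2.21) had the largest log2 ratios.

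Endothelial markers gave none of 5 at least 4-fold apart on DKO, the largest log2 ratio being -1.58 for Tek, and none of 5 on the array labelled G2KO, the largest being 1.52 for Cdh5, a lower limit. Vwf (0.89) and Cldn5 (0.45) came next on DKO, and Kdr (-0.54) and Pecam1 (-0.27) on the array labelled G2KO. Among 7 macrophage markers, Cd14 was 8.28-fold higher on DKO and none was 4-fold lower, followed by log2 ratios of 1.59 for Cd68, a lower limit, and -0.97 for Ptprc. None of 6 macrophage markers was 4-fold apart on the array labelled G2KO, where Itgam (0.70) differed most, then Cd68 and Emr1 (both -0.30). Over all genes, 4.04% were at least 4-fold higher and 4.03% lower on DKO. On the array labelled G2KO these shares were 3.71% and 2.02%.

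Likeness to Acta2 was measured over the 4 arrays as the Euclidean distance between log2 profiles centred on their own mean, among 7213 genes well above background everywhere and varying by at least 1 on the log2 scale. The 8 nearest were Meis1 (0.20), Socs1 (0.25), Hebp1 (0.26), Slc7a11 (0.27), Hmga1 (0.31), Manea (0.32), Plcl2 (0.34) and Hist1h2ac (0.34). Meis1 had relative signals of 2.27, 4.59, 0.629 and 2.44 and Hmga1 68.6, 108, 14.8 and 65.4 on the array labelled G2KO, its WT, DKO and the WT of DKO. Among the members, the distance to Acta2 was 0.80 for Myl9, 0.93 for Tpm1, 1.08 for Tagln and 1.21 for Tpm2, and rose to 1.69 for Cnn2, 1.80 for Cnn1, 2.17 for Smtn and 2.97 for Actg2. Nearest to the members' median profile were Swap70 (0.19), Lrfn4 (0.19), NAP101564-1 (0.21), Cdca7 (0.21), Shmt1 (0.21), 4933412E12Rik (0.21), ENSMUST00000074855 (0.22) and Hnrpdl (0.22). With 4 points in a profile, these distances are a description.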

How the data were processed

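The authors labelled total RNA of 4 MEF preparations with Cy3 for 4 arrays of the Agilent 4x44K mouse design. The deposited scanner files hold spot intensity, with the background subtracted by Feature Extraction (version 10.7.3.1 per the file headers, 10.5.1.1 per the submitters' processing notes). The deposited value table holds the same intensity per spot, with a largest log2 difference of 0 from the scanner files, so it is unscaled. Per the labels all arrays are single-colour, whereas the methods describe dye swaps for G2KO. Probe coordinates are mm9.

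Each of 43020 non-control spots was divided by its array's 75th percentile, spots with outlier marks were left out, and spots of a probe were averaged as log2. The probe with the highest mean over the arrays stood for its gene. A ratio was taken where 1 or both arrays of the pair had a signal well above background. A dim side was set to its own value or the lowest signal well above background, whichever was higher. The ratio is a lower limit where that lowest signal was used, and the measured ratio where the own value was. No ratio was given where it was under 1. With 1 array per group there was no test, and genes at least 4-fold apart were counted, with 2-fold beside it. Besides members, the genes named were the 3 with the largest ratio in each list and comparison, the nearest profiles, and others given for their role. Ratios and limma calls were also run on simulated data with less noise than lies between these arrays. That run does not show how they perform on these data. Versions were Python 3.11.15, R 4.3.3 and limma 3.58.1. The number of arrays limits the precision. Members and lists were chosen with earlier results of these data known.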

Additional observations from a re-analysis of the deposited data

How the results depend on the processing

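As the spread served 1.005, the SD over probes for the pair labelled WT (log2 ratios). Of 239 recomputed member values 233 moved by less than this, 6 moved by more, and no value at least 4-fold apart changed sign. The 6 were Cnn1 and Actg2 against the other WT or both. With the SD between the array labelled G2KO and the WT of DKO, 0.535, a spread chosen after seeing the data, 14 moved by as much or more, 12 of them with another WT array or the mean of both (Acta2 on DKO from -2.17 to -2.83 among them), 1 with normexp (Myh11 on DKO, 1.40 to 0.73) and 1 with the median over probes (Tpm1 on the array labelled G2KO, -0.60 to -1.20). For DKO over its WT the count of 3 members became 6 at 2-fold (1 higher, 5 lower), 1 at 10-fold (Tagln) and 0 with limma on both WT arrays as 1 group (1 residual degree of freedom, adjusted p under 0.05), and it was 3 or 4 under all other settings. For the array labelled G2KO the count of 1 became 2 at 2-fold, and 0 at 10-fold, with the other WT array, with the mean of both WT arrays and with limma. Between WT arrays the count of 1 became 2 at 2-fold and without scaling, and 0 at 10-fold. limma called 0 of 30344 probes for either knockout, where 2498 (DKO) and 475 (array labelled G2KO) had an unadjusted p under 0.05, as did 4 and 0 of the 10 members. The lowest adjusted p of a member was 0.305 (Tagln, DKO). The members' median stayed between -1.36 and -0.84 for DKO. For the array labelled G2KO it ran from -0.48 to 0.04, where the unscaled table puts the median of all genes at 0.33, and between WT arrays from -0.35 to 0.11. No paired analysis was possible because each group is 1 array.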
